A study of Arabidopsis thaliana with 8 samples.

Results

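The genes described here are 10 genes of the stomatal lineage of Arabidopsis thaliana. They are the transcription factor genes SPCH (AT5G53210), MUTE (AT3G06120) and FAMA (AT3G24140), the receptor genes TMM (AT1G80080) and ERL1 (AT5G62230), the peptide genes EPF2 (AT1G34245), EPF1 (AT2G20875) and STOMAGEN (AT4G12970), and the polarity genes BASL (AT5G60880) and POLAR (AT4G31805). They were chosen by locus from a list of known regulators, with earlier results of these data known. Their shares and medians set beside those of all genes are therefore a description. All 10 were among the 22951 genes of the deposited table. Stomata are epidermal pores, each made of a pair of guard cells. Their lineage starts when SPCH, a bHLH transcription factor, drives an asymmetric division, after which the related factors MUTE and FAMA end the divisions and form the guard cells. Secreted peptides of the EPF family act through receptors of the ERECTA family, with TMM as co-receptor, and a MAP kinase cascade to limit SPCH. BASL and POLAR mark one side of a dividing lineage cell. BIN2, a kinase that brassinosteroid signalling turns off, is known to phosphorylate SPCH and the MAP kinase kinase kinase YDA, and POLAR is known to bring it to the cell edge.

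RNA was sequenced from whole seedlings that were 5 days old and grown at 22 °C with 16 h of light and 8 h of darkness a day, after 4 days at 4 °C. The groups were MIR394A_OE, which overexpresses MIR394A (2 libraries), bin2-1, which carries the dominant bin2-1 allele of BIN2 (3 libraries), and wild-type Col-0 (3 libraries). Both lines are in the Col-0 background. The promoter of the overexpressor, the number of its transgenic lines and the zygosity of bin2-1 are not stated in the labels used here. Whether the replicates were sown separately is not stated either, and p-values measure the spread between these libraries, which may be technical.

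Levels are FPKM as the authors deposited them, a unit that divides fragment numbers by transcript length and library size. By the estimated depth, 1 FPKM on 1 kb of transcript stands for 9.67 to 11.3 reads, depending on the library. Fold changes are differences of log2(FPKM + 1) from limma, with a standard error (SE), and a gene was called at a Benjamini-Hochberg adjusted p under 0.05 over the 18798 genes that averaged 1 FPKM or more. Of the 10 genes 8 passed that filter. MUTE and ERL1 did not, and BASL passed it through its levels in MIR394A_OE and bin2-1, since it averaged 0.75 FPKM in Col-0. MIR394A_OE replicate 1 stood apart from the other libraries. Its levels relative to the other libraries fell with transcript length (Spearman's rho = -0.60 across 18695 genes, which are not independent replicates), against rho between -0.08 and 0.37 in the other 7 libraries. On the first principal component of all genes, which held 43.1% of the variance, this library (-54.2) and Col-0 replicate 1 (-35.4) were the lowest, and the bin2-1 libraries (30.9 to 38.6) the highest. LCR, the miR394 target, had a mean and SD of 17.3 ± 0.226 FPKM over the 2 MIR394A_OE libraries, against 21.0 ± 2.45 FPKM over the 3 Col-0 libraries. Both MIR394A_OE values, 17.15 and 17.47 FPKM, lay below all 3 of Col-0, as in 6.17% of all tested genes. LCR was not called (limma, adjusted p = 0.874), so the label of the overexpressor was not checked by it. The miRNA gene itself was not analysed here. BIN2, whose bin2-1 allele alters the protein, had a log2 fold change of -0.03 in bin2-1 (limma, adjusted p = 0.952). Markers of the epidermis, the photosynthetic tissue and the root were present in every library. The trichome markers GL1, GL3 and TRY were low, with TRY at 0.15 FPKM in MIR394A_OE replicate 2. The 4 epidermal markers, of which FDH and PDF1 had the highest levels, summed to 199.85 to 247.43 FPKM in MIR394A_OE. Their sums were 226.66 to 349.12 FPKM in bin2-1 and 246.08 to 317.34 FPKM in Col-0.

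On the FPKM scale, which is per length of transcript, the 10 genes spanned a wide range of levels. STOMAGEN was first by mean in MIR394A_OE and Col-0, at 17.9 ± 9.06 FPKM (SD, n = 2) and 15.1 ± 6.22 FPKM (SD, n = 3), followed by FAMA. In bin2-1 FAMA was first, at 16.8 ± 1.82 FPKM (SD, n = 3), and STOMAGEN was the fifth, at 8.36 ± 1.80 FPKM. In all 3 groups the libraries of STOMAGEN overlapped those of its neighbours in this order, so its rank is uncertain. EPF2, SPCH, TMM and POLAR lay between the second and the sixth place in every group, and each overlapped the next in level within MIR394A_OE and within Col-0. The lowest levels were those of MUTE and ERL1 in both lines, and of BASL, ERL1 and MUTE in Col-0, where these 3 overlapped. In bin2-1 BASL stood apart from POLAR above it and from EPF1 below it.

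**Figure D1:**
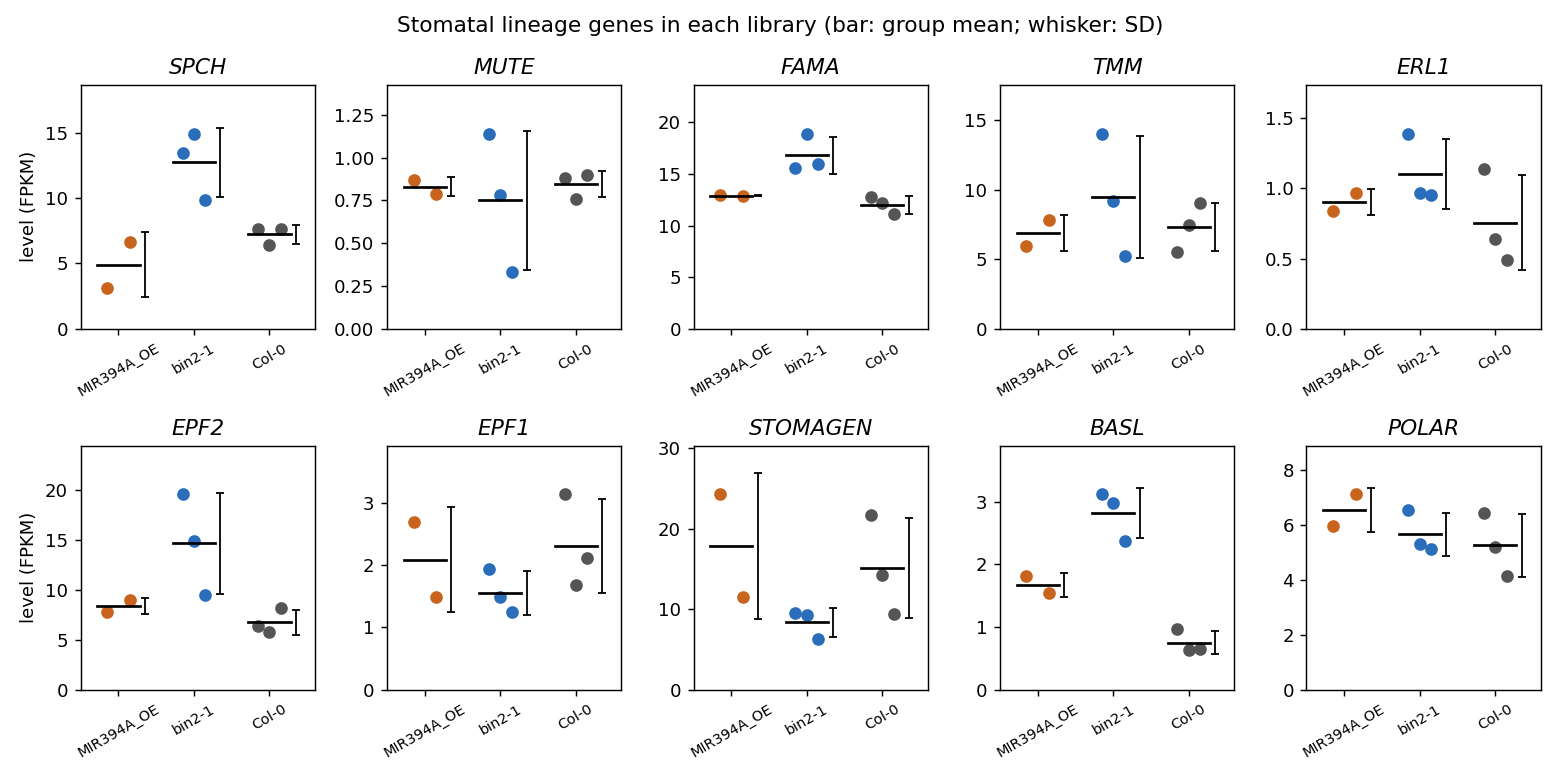
Level in FPKM (vertical axis, from 0, scaled per gene) of the 10 stomatal lineage genes in each library, with points for libraries, bars for group means and whiskers for the SD. For SPCH, FAMA, EPF2 and BASL the 3 bin2-1 points lie above all 3 Col-0 points, while the bin2-1 and Col-0 points of the other 6 genes overlap.

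Setting bin2-1 against Col-0 shows how the lineage genes stand in seedlings with a mutant form of BIN2. None of the 8 tested genes was called, where 0.112% of all tested genes were. The 4 genes BASL, EPF2, SPCH and FAMA were higher in every bin2-1 library than in every Col-0 library, and none of the 10 was lower in every one. Over all tested genes 20.2% lay wholly above Col-0 in bin2-1 and 8.47% wholly below. An unadjusted p under 0.05 was reached upward by the same 4 genes and downward by none, against 11.1% and 6.67% of all tested genes. The median log2 fold change of the 8 was 0.36, beside 0.10 over all tested genes. BASL counts in these values, though it passed the filter through its levels in MIR394A_OE and bin2-1. Whole seedlings were measured, so more lineage cells and more RNA per lineage cell cannot be told apart. Without MIR394A_OE replicate 1 and Col-0 replicate 1, the log2 fold changes were 1.21 for BASL, 0.94 for EPF2, 0.76 for SPCH, 0.49 for FAMA and -0.44 for STOMAGEN, with limma adjusted p from 0.111 to 0.317.

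BASL, whose protein moves to one edge of a cell before it divides asymmetrically, came closest to a call. It had 3.12, 2.98 and 2.37 FPKM in bin2-1, against 0.96, 0.64 and 0.65 FPKM in Col-0. Every bin2-1 library was well above the highest Col-0 library, replicate 1. The ratio of the means was 3.76, and the log2 fold change was 1.13 (SE 0.18, 95% interval 0.73 to 1.52, limma, adjusted p = 0.0555), the 31st smallest p of all tested genes. BASL was in this fit through its levels in MIR394A_OE and bin2-1, since Col-0 averaged 0.75 FPKM, so that rank is a description. With no filter the limma adjusted p was 0.0675. BASL was called in 2 of 18 alternatives, with median-of-ratios scaling (limma, adjusted p = 0.0409) and without bin2-1 replicate 3 (adjusted p = 0.0348). Without bin2-1 replicate 1, bin2-1 replicate 2 or Col-0 replicate 2 the limma adjusted p was 0.153, 0.322 and 0.239. With a pseudocount of 0.1 FPKM in place of 1, the log2 fold change of BASL was 1.79 (limma, adjusted p = 0.0562). The annotated BASL transcript is 1211 nt long, so that its Col-0 levels rest on few reads. POLAR, the other polarity factor, had 6.56, 5.29 and 5.12 FPKM in bin2-1, against 6.43, 5.18 and 4.15 FPKM in Col-0. Its libraries overlapped, and the log2 fold change was 0.10 (SE 0.19, 95% interval -0.33 to 0.53, limma, adjusted p = 0.812). In TAIR10.1 POLAR overlaps a gene on the opposite strand, AT4G31810, and ERL1 overlaps AT5G62240, and since the use of strand is not given their levels may include reads of these neighbours.

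Among the transcription factors SPCH had 13.45, 14.94 and 9.84 FPKM in bin2-1, against 7.64, 6.38 and 7.66 FPKM in Col-0. The groups did not overlap, with the lowest bin2-1 library being replicate 3, and the log2 fold change was 0.73 (SE 0.25, 95% interval 0.17 to 1.29, limma, adjusted p = 0.193). MUTE, which ends the asymmetric divisions, was low throughout, at 1.14, 0.78 and 0.33 FPKM in bin2-1 and 0.88, 0.76 and 0.90 FPKM in Col-0. The bin2-1 libraries spread around those of Col-0, and an exact two-sided permutation test of 3 against 3 gave p = 0.8, where 0.1 is the smallest p it can give. FAMA, which stops the division of the guard mother cell and sets guard cell identity, had 15.61, 18.90 and 15.92 FPKM in bin2-1, against 12.79, 12.20 and 11.08 FPKM in Col-0. Its groups did not overlap and the log2 fold change was 0.45 (SE 0.15, 95% interval 0.11 to 0.78, limma, adjusted p = 0.181).

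The 3 peptide genes had fold changes of different sign. EPF2, secreted by early lineage cells to restrain further entry, had 19.58, 14.91 and 9.49 FPKM in bin2-1, against 6.39, 5.73 and 8.17 FPKM in Col-0. Its lowest bin2-1 library, replicate 3, lay close to the highest of Col-0. The log2 fold change was 0.97 (SE 0.25, 95% interval 0.41 to 1.53, limma, adjusted p = 0.116). EPF2 was called in 1 of 19 alternatives, without bin2-1 replicate 3, at 1.23 (limma, adjusted p = 0.0465). Without bin2-1 replicate 2 it was at 0.93 (limma, adjusted p = 0.435). EPF1, secreted later to enforce the spacing of stomata, had 1.93, 1.48 and 1.24 FPKM in bin2-1 and 3.13, 1.67 and 2.11 FPKM in Col-0, with a fold change of -0.36 on the log2 scale (SE 0.23) and a limma adjusted p of 0.437. Its libraries overlapped. STOMAGEN, a peptide of the inner leaf tissue that competes with the EPF peptides and promotes stomata, had 9.49, 9.31 and 6.29 FPKM in bin2-1, against 21.70, 14.27 and 9.34 FPKM in Col-0. Its Col-0 libraries differed more among themselves than those of bin2-1, and the lowest overlapped bin2-1. The log2 fold change was -0.73 (SE 0.34, 95% interval -1.48 to 0.03, limma, adjusted p = 0.291), with -0.44 without Col-0 replicate 1 and -1.01 without Col-0 replicate 3. Markers of the photosynthetic tissue that makes STOMAGEN summed to 16884.78 to 26765.9 FPKM in bin2-1 and 20928.07 to 25254.26 FPKM in Col-0 over 4 of 4 genes, a sum that 2 of them, RBCS1A and LHCB1.3, dominate. The other two, CA1 (log2 fold change -0.31, SE 0.15) and LHCB2.2 (-0.66, SE 0.22), were lower in every bin2-1 library than in every Col-0 library, without a call (limma, adjusted p of 0.304 and 0.189). The part of these markers in the STOMAGEN result was not tested.

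The receptor genes were not separated. TMM, the co-receptor without a kinase domain, had 14.03, 9.18 and 5.22 FPKM in bin2-1 and 5.55, 7.43 and 9.03 FPKM in Col-0. Its bin2-1 libraries included the highest and the lowest of these 6 values, and the log2 fold change was 0.26 (SE 0.31, 95% interval -0.43 to 0.95, limma, adjusted p = 0.681). ERL1, a receptor kinase of the ERECTA family, had 1.39, 0.97 and 0.95 FPKM in bin2-1 and 1.14, 0.64 and 0.49 FPKM in Col-0, which overlapped (exact two-sided permutation test, p = 0.3).

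**Figure D2:**
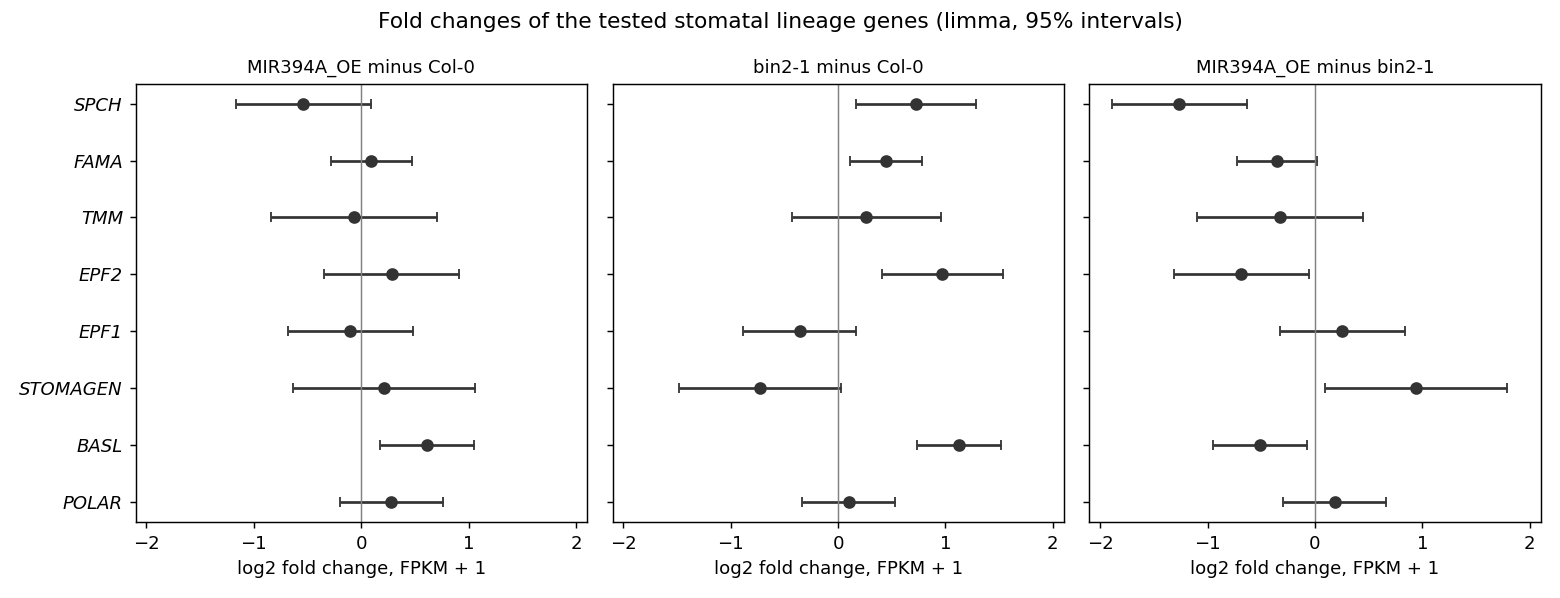
Log2 fold change on the FPKM + 1 scale (horizontal axis) with 95% intervals for the 8 tested genes in 3 comparisons, from one limma fit of 8 libraries. In bin2-1 minus Col-0 the intervals of SPCH, FAMA, EPF2 and BASL lie above 0, and BASL has the highest value, 1.13; none of the 8 was called over all genes.

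With every library centred on the mean log2 level of the 4 epidermal markers, a scaling chosen after the values were seen, all bin2-1 fold changes shift by the same amount. That amount is set by the markers, of which 3 had a positive fold change and 1, PDF1, a negative one (-0.23). The size of the shift therefore does not test the epidermal share of the seedlings. BASL was at 1.04 (SE 0.30), EPF2 at 0.89 (SE 0.28), SPCH at 0.64 (SE 0.29) and FAMA at 0.36 (SE 0.28) on the log2 scale. None was called on that scaling, with limma adjusted p of 0.212, 0.278, 0.593 and 0.903. ATML1, a regulator of epidermal identity and one of these markers, had a log2 fold change of 0.37 in bin2-1 (SE 0.18, limma, adjusted p = 0.326).

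Sequences before the annotated gene starts are shown for the 4 genes that lay wholly above Col-0 and for STOMAGEN, which had the most negative fold change, because SPCH with its partner SCRM and the brassinosteroid factors BZR1 and BES1 are known to bind E-boxes. Each runs 5′ to 3′ towards the gene, covers 250 bases in RefSeq's TAIR10.1 assembly, and has every match to the E-box CANNTG in capitals. The authors' build is not given, and genes were matched by gene number.
BASL: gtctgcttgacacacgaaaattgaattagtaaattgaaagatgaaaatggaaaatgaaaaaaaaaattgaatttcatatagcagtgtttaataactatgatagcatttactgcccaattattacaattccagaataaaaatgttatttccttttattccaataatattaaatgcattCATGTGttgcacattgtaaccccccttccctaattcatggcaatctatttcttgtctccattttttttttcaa
EPF2: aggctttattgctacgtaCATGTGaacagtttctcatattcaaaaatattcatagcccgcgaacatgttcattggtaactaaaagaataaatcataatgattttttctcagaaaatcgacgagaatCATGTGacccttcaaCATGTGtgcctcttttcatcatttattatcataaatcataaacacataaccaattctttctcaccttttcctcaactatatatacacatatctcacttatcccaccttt
FAMA: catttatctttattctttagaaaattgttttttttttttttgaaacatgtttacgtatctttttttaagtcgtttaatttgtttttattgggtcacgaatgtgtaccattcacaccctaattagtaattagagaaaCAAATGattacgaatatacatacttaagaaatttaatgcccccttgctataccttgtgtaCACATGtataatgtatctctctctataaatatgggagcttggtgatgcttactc
SPCH: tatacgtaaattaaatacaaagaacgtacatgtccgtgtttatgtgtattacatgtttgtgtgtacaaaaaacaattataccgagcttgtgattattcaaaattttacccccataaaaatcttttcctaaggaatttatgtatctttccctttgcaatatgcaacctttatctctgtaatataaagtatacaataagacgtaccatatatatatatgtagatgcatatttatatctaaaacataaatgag
STOMAGEN: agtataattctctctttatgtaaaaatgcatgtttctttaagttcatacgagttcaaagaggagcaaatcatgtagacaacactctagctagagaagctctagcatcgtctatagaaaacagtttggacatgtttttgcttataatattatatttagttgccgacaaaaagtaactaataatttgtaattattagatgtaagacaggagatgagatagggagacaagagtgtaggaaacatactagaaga
The windows are chr5:24489837-24490086 on the minus strand for BASL, chr1:12472618-12472867 on the plus strand for EPF2, chr3:8718212-8718461 on the minus strand for FAMA, chr5:21589256-21589505 on the minus strand for SPCH and chr4:7587100-7587349 on the minus strand for STOMAGEN. EPF2 held 3 matches, at 232, 124 and 109 bases before the start, all of them CATGTG. FAMA held 2 matches, BASL 1, and SPCH and STOMAGEN 0. Of the 10 genes 6 had a CANNTG match in this window, beside 55.3% of 27443 protein-coding genes. The narrower form CATGTG, searched on both strands and contained in CANNTG, was found in 4 of the 10, which were BASL, EPF2, EPF1 and FAMA, and in 11.1% of all windows. CACGTG, also contained in CANNTG, was found in 0 of the 10 (6.49% of all windows), CGTGCG on either strand in 0 (1.57%) and CGTGTG on either strand in 2 (5.37%), BASL and ERL1. The window of POLAR runs into the gene AT4G31800. A match is a description of letters and shows no binding.

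Setting MIR394A_OE against Col-0 shows how the same genes stand in seedlings labelled as overexpressing MIR394A. None of the 8 tested genes was called, where 0.0106% of all tested genes were. BASL and FAMA were the 2 of 10 genes whose 2 MIR394A_OE values both exceeded all 3 of Col-0, and none was lower in both. Over all tested genes 10.9% lay wholly above Col-0 and 6.17% wholly below. The median log2 fold change of the 8 was 0.15, beside 0.04 over all tested genes, with 5 positive and 3 negative. An unadjusted p under 0.05 was reached upward by BASL and downward by none, against 3.15% and 1.63% of all tested genes.

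BASL had 1.81 and 1.54 FPKM in MIR394A_OE, against 0.96, 0.64 and 0.65 FPKM in Col-0. Both MIR394A_OE libraries were above Col-0 and below all 3 bin2-1 libraries. As above, BASL was tested only because its levels in MIR394A_OE and bin2-1 brought it past the filter. The log2 fold change was 0.62 (SE 0.20, 95% interval 0.18 to 1.06, unadjusted p = 0.0112 in limma, adjusted p = 0.873), the 147th smallest p of all tested genes. It was 0.54 without MIR394A_OE replicate 1, 0.69 without replicate 2 and 1.08 with a pseudocount of 0.1 FPKM. FAMA differed little, with 12.93 and 12.85 FPKM in MIR394A_OE, against 12.79, 12.20 and 11.08 FPKM in Col-0, a log2 fold change of 0.10 (SE 0.17, 95% interval -0.28 to 0.47, limma, adjusted p = 0.934).

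SPCH had 3.16 and 6.68 FPKM in MIR394A_OE, against 7.64, 6.38 and 7.66 FPKM in Col-0. Replicate 1 held the lowest SPCH level of the 8 libraries, and replicate 2 lay within the Col-0 values. The log2 fold change was -0.54 (SE 0.28, 95% interval -1.16 to 0.09, limma, adjusted p = 0.873), and -0.10 (SE 0.25) without replicate 1. The annotated SPCH transcript is 1796 nt long, and replicate 1 is the library in which levels fell with length. The replicates also differed for STOMAGEN, whose transcript of 985 nt had 24.26 and 11.45 FPKM in MIR394A_OE, against 21.70, 14.27 and 9.34 FPKM in Col-0. Its fold change of 0.21 (SE 0.38, limma, adjusted p = 0.934) turned to -0.30 (SE 0.42) without replicate 1. Of the other members, EPF1 (866 nt), MUTE (941 nt) and BASL (1211 nt) were higher in replicate 1 than in replicate 2 of MIR394A_OE. POLAR (1531 nt), TMM (1831 nt) and ERL1 (3507 nt) were lower. EPF2, the shortest at 828 nt, was also lower in replicate 1, and FAMA (2299 nt) was nearly equal in both. The part of transcript length in these values was not tested.

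The other genes overlapped with Col-0. EPF2 had 7.81 and 8.97 FPKM in MIR394A_OE, against 6.39, 5.73 and 8.17 FPKM in Col-0, with a fold change of 0.28 on the log2 scale (SE 0.28) and a limma adjusted p of 0.881. POLAR had 5.97 and 7.11 FPKM in MIR394A_OE, with a fold change of 0.28 on the log2 scale (SE 0.22) and a limma adjusted p of 0.873. EPF1 had 2.68 and 1.49 FPKM (log2 fold change -0.10, SE 0.26) and TMM 5.98 and 7.81 FPKM (-0.07, SE 0.35) in MIR394A_OE. MUTE had 0.87 and 0.79 FPKM and ERL1 0.84 and 0.97 FPKM in MIR394A_OE, with exact two-sided permutation p of 0.8 and 0.5, where 2 libraries against 3 cannot go below 0.1.

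The 2 lines were also compared directly, as MIR394A_OE minus bin2-1. This comparison shares its libraries with the other 2, so its values restate the same measurements. None of the 8 genes was called, where 0.0532% of all tested genes were. SPCH, FAMA, EPF2 and BASL were lower in both MIR394A_OE libraries than in every bin2-1 library, and STOMAGEN was higher. Over all tested genes 20.9% lay wholly below bin2-1 and 15% wholly above. An unadjusted p under 0.05 was reached downward by 3 of the 8 and upward by 1, against 10.9% and 8.08% of all tested genes. BASL is among the 3, though it passed the filter through its levels in MIR394A_OE and bin2-1, the groups compared here. SPCH had the smallest p of the 8, with a log2 fold change of -1.26 (SE 0.28, 95% interval -1.89 to -0.64, limma, adjusted p = 0.102). It was called without MIR394A_OE replicate 2 (-1.71, adjusted p = 0.0165), which leaves the library with the low SPCH level as the only one of its group, and was -0.82 (adjusted p = 0.583) without replicate 1. The log2 fold changes of the others were 0.94 for STOMAGEN (SE 0.38), -0.69 for EPF2 (SE 0.28), -0.51 for BASL (SE 0.20) and -0.35 for FAMA (SE 0.17), with limma adjusted p of 0.226, 0.232, 0.213 and 0.284. All 4 epidermal markers were also lower by mean in MIR394A_OE than in bin2-1, at a median log2 fold change of -0.32. Centred on them, FAMA was at -0.00 (SE 0.32), BASL at -0.16 (SE 0.33) and EPF2 at -0.33 (SE 0.31) on the log2 scale. SPCH was at -0.91 (SE 0.32) and STOMAGEN at 1.29 (SE 0.40). This scaling, chosen after the values were seen, shifts all genes by the same amount, which the markers set. The shift does not test the epidermal share of the seedlings.

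**Figure D3:**
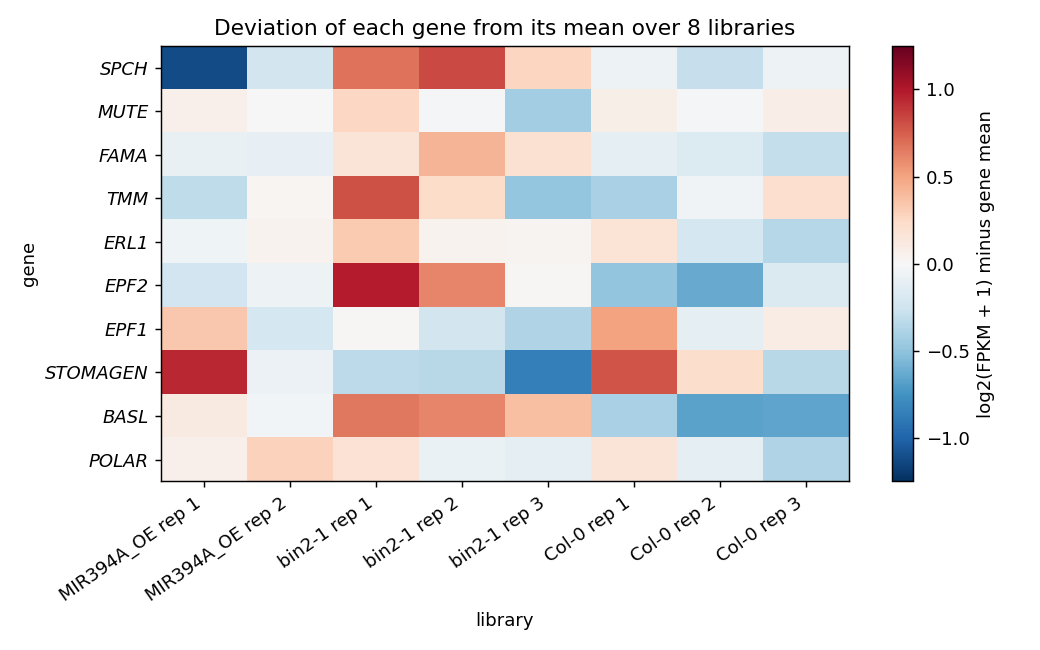
Deviation of log2(FPKM + 1) from the mean of each gene over 8 libraries (colour) for the 10 genes (rows) in each library (columns). SPCH, EPF2 and BASL are high in bin2-1 replicates 1 and 2 and less so in replicate 3, and STOMAGEN is highest in MIR394A_OE replicate 1 at 24.26 FPKM and in Col-0 replicate 1 at 21.70 FPKM.

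Over the 8 libraries the pairs with the highest Pearson r of log2(FPKM + 1) were FAMA with BASL at 0.886, EPF2 with BASL at 0.855 and EPF1 with STOMAGEN at 0.826. The lowest were SPCH with STOMAGEN at -0.711 and EPF2 with STOMAGEN at -0.525. The points of each pair share libraries, depth and group differences, so these values are a description. In bin2-1, replicate 3 had the lowest level of all 10 genes except FAMA, and replicate 1 the highest of all except SPCH and FAMA. The genes outside the 10 whose pattern was most like the mean standardized pattern of the 8 tested genes were iqd21 (r = 0.983), AT5G15080 (0.978), AT1G64405 (0.975), NF-YA3 (0.965) and AT1G30280 (0.965), by Pearson r over 8 libraries. iqd21, the first of these, had 37.17 and 34.62 FPKM in MIR394A_OE, 50.60, 43.07 and 30.80 in bin2-1 and 36.80, 30.21 and 31.07 in Col-0.

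The wider pathway held 54 other loci in 5 lists, of which 53 were in the table and 47 passed the filter. None was called in any of the 3 comparisons by limma. In bin2-1 minus Col-0, 3 reached an unadjusted p under 0.05 upward and 4 downward, against 11.1% and 6.67% of all tested genes, and the median log2 fold change was 0.10, as over all tested genes. In MIR394A_OE minus Col-0 the counts were 1 and 1 (3.15% and 1.63% of all tested genes), with a median of -0.001 beside 0.04 over all tested genes. In MIR394A_OE minus bin2-1 they were 4 and 2 (8.08% and 10.9% of all tested genes), with a median of -0.17 beside -0.06.

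In the list of other receptors and the MAP kinase cascade that relays the EPF signal, 3 of 12 tested genes reached an unadjusted p under 0.05 downward in bin2-1 and 0 upward, against 6.67% and 11.1% of all tested genes. These 3, MPK3, MKK4 and MKK9, are kinases of the cascade. The other tested kinases of the cascade had smaller fold changes, -0.20 for MKK5 (SE 0.16), -0.15 for YDA (SE 0.22) and 0.13 for MPK6 (SE 0.15). Of the 12 genes 7 had a positive and 5 a negative fold change, and the median was 0.04, beside 0.10 over all tested genes. MPK3, a kinase that phosphorylates SPCH and also acts in stress responses, had 43.58, 42.10 and 90.34 FPKM in bin2-1, against 393.29, 389.80 and 106.50 FPKM in Col-0. Col-0 replicate 3 lay near the highest bin2-1 library, and the log2 fold change was -2.19 (SE 0.50, limma, adjusted p = 0.102), called at -2.81 without Col-0 replicate 3 (adjusted p = 0.0263). MKK4, a kinase upstream of MPK3, had 13.19, 15.38 and 21.24 FPKM in bin2-1, against 32.50, 39.81 and 24.73 FPKM in Col-0, with a fold change of -0.92 on the log2 scale (SE 0.22) and a limma adjusted p of 0.108. In MIR394A_OE MPK3 had 334.22 and 233.91 FPKM, within the Col-0 values. MKK5, a near relative of MKK4, had 12.39 and 13.62 FPKM in MIR394A_OE, against 17.79, 22.55 and 17.18 FPKM in Col-0, with a fold change of -0.52 on the log2 scale (SE 0.18) and a limma adjusted p of 0.873.

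Among the mature guard cell genes 8 of 11 had a positive fold change in bin2-1, beside 11922 of all 18798 tested genes, and their median was 0.20, beside 0.10. KAT2, a potassium channel of guard cells, had 8.55, 8.18 and 4.98 FPKM in bin2-1, against 4.82, 2.82 and 1.70 FPKM in Col-0. Its groups were separated by a small margin, and the log2 fold change was 1.04 (SE 0.30, limma, adjusted p = 0.138). MYB60, a guard cell transcription factor, had 17.58, 22.30 and 17.51 FPKM in bin2-1, against 16.16, 11.44 and 8.14 FPKM in Col-0, 0.68 higher on the log2 scale (SE 0.24, limma, adjusted p = 0.20). In MIR394A_OE MYB60 had 14.19 and 18.75 FPKM (log2 fold change 0.47, SE 0.27), and AT1G22690, annotated as a gibberellin-regulated family protein, had 279.19 and 206.19 FPKM against 169.75, 188.61 and 169.48 in Col-0 (0.45, SE 0.19), with a limma adjusted p of 0.873 for each.

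Of the other EPF-like peptides and peptide proteases 6 of 10 loci could be tested. EPFL6, a peptide of the same family expressed in stems, had 2.48, 3.13 and 2.19 FPKM in bin2-1, against 1.31, 1.42 and 0.33 FPKM in Col-0, with a fold change of 0.87 on the log2 scale (SE 0.25) and a limma adjusted p of 0.137. In MIR394A_OE it had 1.72 and 1.55 FPKM (0.43, SE 0.28) and AT1G71866, annotated as EPF-like, 1.55 and 2.04 FPKM (0.48, SE 0.29). AT5G10310, also EPF-like, had a log2 fold change of 0.47 in bin2-1 (SE 0.34). Among the polarity partners BRXL2 was at 0.48 (SE 0.23) and BIL2, a kinase close to BIN2, at 0.21 (SE 0.13) in bin2-1. BSL1 and BSL2, phosphatases of the brassinosteroid pathway, were at -0.48 (SE 0.33) and -0.45 (SE 0.29) in MIR394A_OE, and the fold changes of both were positive without replicate 1. Of the remaining lineage factors SMR4, a cell cycle inhibitor, was at -0.69 (SE 0.28) and HDG2, an epidermal homeodomain factor, at 0.35 (SE 0.20) in bin2-1. RBR1, the retinoblastoma homologue, was at -0.46 (SE 0.26) in MIR394A_OE, and at 0.045 without replicate 1. FLP, a MYB factor that limits guard mother cell division, was at 0.48 (SE 0.31) in MIR394A_OE. None of these was called by limma in either comparison.

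**Figure D4:**
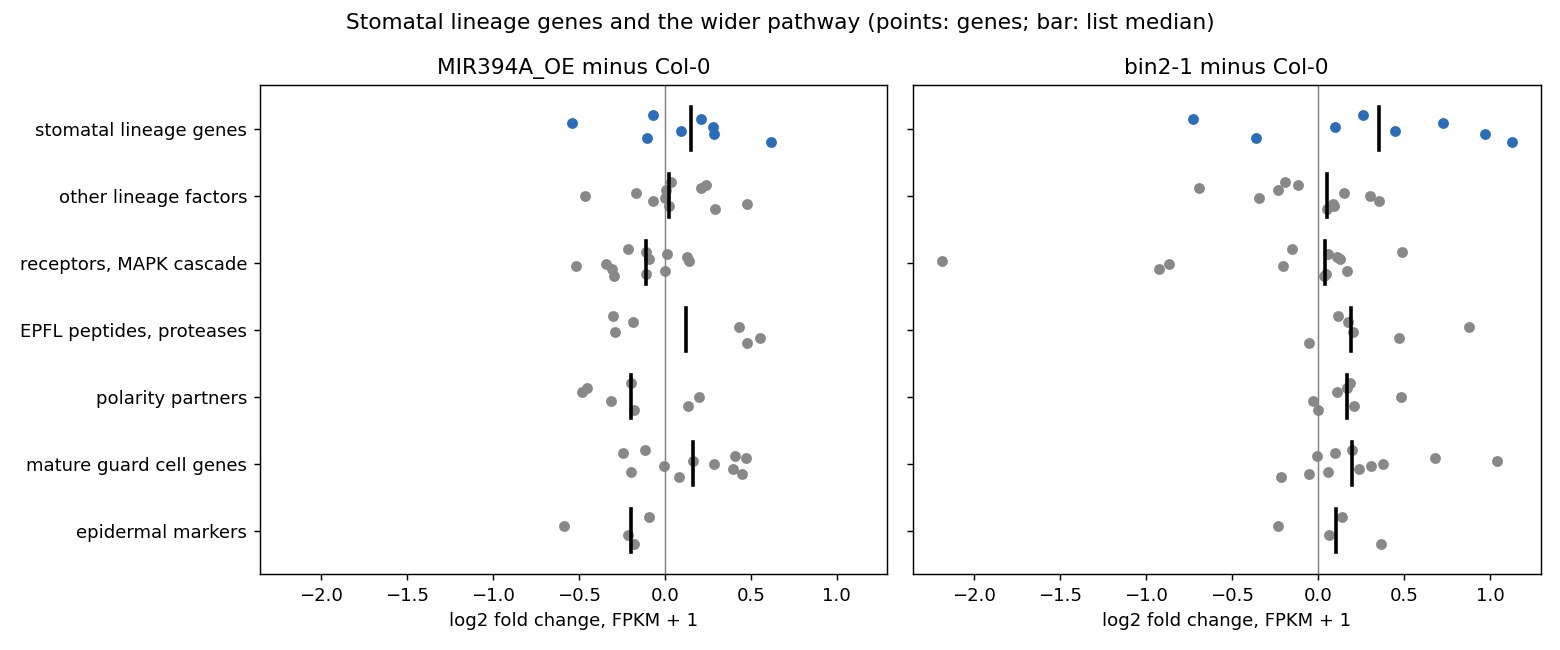
Log2 fold change on the FPKM + 1 scale (horizontal axis) of single genes (points) and the median of each list (black bar) for the 8 tested stomatal lineage genes, 5 lists of the wider pathway and epidermal markers, in MIR394A_OE minus Col-0 (left) and bin2-1 minus Col-0 (right). In bin2-1 the median of the 8 is 0.36 and that of the 11 mature guard cell genes 0.20, and the lowest point is MPK3 at -2.19.

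Between the lines the 2 genes with the smallest p in each of the 5 lists were MPK3 (2.33, SE 0.56), MKK4 (0.62, SE 0.25), RBR1 (-0.77, SE 0.26), SMR4 (0.90, SE 0.31), KAT2 (-0.88, SE 0.33), AT1G22690 (0.50, SE 0.19), EPFL5 (-0.49, SE 0.24), AT1G71866 (0.53, SE 0.29), BSL2 (-0.62, SE 0.29) and BSL1 (-0.59, SE 0.33), as log2 fold changes of MIR394A_OE over bin2-1. None of them was called by limma with all 8 libraries, with adjusted p from 0.112 to 0.345. RBR1, BSL1, BSL2 and AT1G22690 were called without MIR394A_OE replicate 2, which leaves replicate 1 alone in its group, and MPK3 without Col-0 replicate 3.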

How the data were processed

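The authors deposited 1 table of FPKM values for 8 RNA-seq libraries with 2 decimals, per the file headers and the labels. RNA came from an RNeasy Plant Mini kit and libraries from an Illumina TruSeq RNA kit, per the labels' protocols. The submitters' processing notes name Bowtie2 and HISAT, with no version or step. The FPKM program, the build and the strand setting are not given in the sources used. Of 22951 gene numbers 22798 matched RefSeq's TAIR10.1 table, which gave names, and 153 did not.

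Values were tested as log2(FPKM + 1) with limma 3.58.1 in R 4.3.3. The pseudocount of 1 understates fold changes of low genes such as BASL. Genes averaging 1 FPKM or more over 8 libraries were fitted together in 1 model of 3 group means (eBayes, trend and robust), in which the spread is estimated over all groups. P-values are two-sided, with Benjamini-Hochberg adjustment at 0.05. Genes under the filter got an exact permutation test. The fit was tested on simulated data. Depth was estimated from the FPKM steps of 1646 genes of 500 to 1800 nt whose transcript version was the same in TAIR10.1, where 87.6% to 92.0% of values worth up to 5 reads were within 0.1 of a whole read (20.0% would be by chance). A floor of 3 reads on 1 kb is 0.266 to 0.310 FPKM, which covers counting error only.

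The members and lists were chosen with earlier results of these data known. All 10 members are named. From each other list the rule takes up to 3 called genes, or the 2 with the smallest p, in each comparison, and it takes the 5 genes most like the members in pattern. Alternatives covered pseudocount, filter, scaling, replicate block, groups in the fit, eBayes, and left-out libraries, and centring on epidermal markers was chosen after seeing the data.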

Additional observations from a re-analysis of the deposited data

How the results depend on the processing

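Over the alternatives run, no member was called except BASL, EPF2 and SPCH in the settings named above. The count of genes called over all genes depended on the setting. For MIR394A_OE minus Col-0 it was 2, and 0 in a fit of these groups alone (572 genes at an unadjusted p under 0.05), with 0 to 2 when a library was left out (0 without Col-0 replicate 3). For bin2-1 minus Col-0 it was 21, against 3 with no filter, 112 with median-of-ratios scaling, 32 with the replicate block, 0 with only the 2 groups compared (4224 at an unadjusted p under 0.05), 9 without trend and robust, 1 without MIR394A_OE replicate 1 and Col-0 replicate 1 (both low on component 1), and 0 to 180 when a library was left out, with 180 without Col-0 replicate 3, 171 without bin2-1 replicate 3 and 0 without any of the others. For MIR394A_OE minus bin2-1 it was 10, against 6 with a pseudocount of 0.1 or 0.5 FPKM, 3 with no filter, 16 with quantile scaling, 0 with only the 2 groups compared (3133 at an unadjusted p under 0.05), 2 without both libraries low on component 1, 94 when centred on epidermal markers, and 1 to 2308 when a library was left out, with 2308 without MIR394A_OE replicate 2, 84 without bin2-1 replicate 3, 39 without Col-0 replicate 3, 21 without Col-0 replicate 1 and 1 or 2 otherwise. The labels give the replicate numbers no meaning. Same-numbered deviations correlated at 0.36 and 0.27 for MIR394A_OE with Col-0, 0.322 and 0.03 for MIR394A_OE with bin2-1, and 0.083, -0.202 and -0.111 for bin2-1 with Col-0. Different-numbered deviations correlated at -0.36 to 0.443. With 2 libraries the MIR394A_OE deviations mirror each other, so their values are not separate evidence. These values do not settle whether the numbers mark pairs. The libraries were not treated as paired, and under the replicate block no member gained a call.

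Where 1 MIR394A_OE library was left out, the other was assumed to vary like the other groups. BASL and EPF1 are under the stricter filter of 5 FPKM and have no value there. Directions that turned belonged to genes without a call in the fit of all 8 libraries. In MIR394A_OE minus Col-0 STOMAGEN was at -0.014 under the replicate block and at -0.013 without both libraries low on component 1, where RBR1 was at 0.061 and BSL2 at 0.045. Centred on epidermal markers TMM was at 0.20 and EPF1 at 0.16. With a library left out the ranges were -0.30 to 0.72 for STOMAGEN, -0.38 to 0.18 for EPF1, -0.23 to 0.10 for TMM, -0.97 to 0.045 for RBR1, -1.09 to 0.13 for BSL1 and -1.02 to 0.11 for BSL2. In bin2-1 minus Col-0 they were -0.032 to 0.23 for POLAR and -0.045 to 0.59 for TMM. In MIR394A_OE minus bin2-1 EPF1 was at -0.025 and BSL1 at 0.014 without both libraries low on component 1, with ranges of -0.025 to 0.54 for EPF1 and -1.20 to 0.014 for BSL1, and TMM was at 0.026 when centred on epidermal markers. MUTE, which has no limma p, turned to 0.25 in MIR394A_OE minus Col-0 when centred on epidermal markers, and leave-one-out values ran between -0.047 and 0.019. Without bin2-1 replicate 3 it turned to 0.08 in bin2-1 minus Col-0 and to -0.09 in MIR394A_OE minus bin2-1, where ERL1 turned to 0.22 when centred. The cause was not tested. Depth limits MUTE, ERL1 and BASL most.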

Other observations

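Ratios of members within a library do not depend on a scaling factor common to all genes of that library. A trend with transcript length, as in MIR394A_OE replicate 1, does not cancel in them. The ratios were chosen after the values were seen and are given as a description, with no test. The ratio of EPF2 to EPF1, the early to the late peptide, was 2.91 and 6.02 in MIR394A_OE, 10.15, 10.07 and 7.65 in bin2-1, and 2.04, 3.43 and 3.87 in Col-0. The ratio of EPF2 to STOMAGEN, peptides with opposite known effects on stomatal number, was 0.322 and 0.783 in MIR394A_OE, 2.06, 1.60 and 1.51 in bin2-1, and 0.294, 0.401 and 0.875 in Col-0. In bin2-1 every library was above every library of the other groups for both ratios, which restates the levels of these genes given above. The share of all gene pairs that separate in this way was not computed.

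The ratio of BASL to POLAR was 0.303 and 0.217 in MIR394A_OE, 0.476, 0.563 and 0.463 in bin2-1, and 0.149, 0.124 and 0.157 in Col-0, so that the 3 groups did not overlap. The levels of BASL alone did not overlap between the 3 groups either, while those of POLAR did. The ratio of SPCH to FAMA was 0.244 and 0.520 in MIR394A_OE, 0.862, 0.791 and 0.618 in bin2-1, and 0.597, 0.523 and 0.691 in Col-0, and bin2-1 overlapped Col-0. The ratio of SPCH to MUTE was 3.63 and 8.46 in MIR394A_OE, 11.8, 19.2 and 29.8 in bin2-1, and 8.68, 8.39 and 8.51 in Col-0, where the 3 libraries were close. MUTE levels under 1 FPKM rest on few reads, which limits the last ratio.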
